A study of Homo sapiens with 8 samples.

Results

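The cytosolic ribosomal proteins of the large and small subunit were examined in RNA-seq of HT29 cells, a human colon cancer line. Members were the genes whose symbol starts with RPL or RPS and a digit, together with RPSA, RPLP0, RPLP1 and RPLP2, without the S6 kinases and the Y-linked gene. This gave 88 of the 18664 genes in the table, or 202 of its 84798 transcripts. Of these, 46 encode large subunit proteins and 31 encode small subunit proteins. The other 11 are 7 paralogs, 3 read-through genes and RPS19BP1, a gene of a protein that binds RPS19 and is no part of the ribosome. RPL10L was not analysed here.

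The study asked which transcripts differ after knockdown of ALDH1A1, a cytosolic aldehyde dehydrogenase. It held 4 libraries of ALDH1A1 knockdown cells (shALDH1A1) and 4 of control cells (CTRL), all grown with 10% FBS. The controls are called shControl in the sample titles, WT by genotype, and parental cells in the series' description. Neither the shRNA sequenced, nor the number of clones, nor whether replicates were separate cultures is stated in the labels, so the p-values below measure the spread between these libraries only. ALDH1A1 had 0 to 3 counts in the shALDH1A1 libraries and 83 to 1870 in the CTRL libraries.

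A ribosome carries 1 copy of nearly every ribosomal protein, and cells make these proteins in matched amounts. The small subunit reads the mRNA and the large subunit joins the amino acids. The mRNAs of vertebrate ribosomal proteins are short, abundant and long-lived, and most begin with a 5′ terminal oligopyrimidine (TOP) motif, a C at the cap followed by a run of C and T, through which mTOR signaling controls their translation. Several paralogs, such as RPL22L1 and RPS27L, can stand in for their parent protein or are made in particular tissues.

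The start of the mRNA, where most subunit genes carry the TOP motif, is shown for some of the genes named below. RPS20 and RPS29 are not among them. Each line gives the 10 bases before and the 20 bases from the start of the gene in RefSeq (GRCh38.p14), in the gene's own direction, with the pyrimidine run at the start in capitals.
RPL38 (chr17:74203668-74203697, plus strand): aagtctcgttCTTTTTCgtccttttccccg
RPS21 (chr20:62387093-62387122, plus strand): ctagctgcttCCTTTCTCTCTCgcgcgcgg
RPL24 (chr3:101686699-101686728, minus strand): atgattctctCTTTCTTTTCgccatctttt
RPL14 (chr3:40457329-40457358, plus strand): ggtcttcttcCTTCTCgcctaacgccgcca
RPS27 (chr1:153990752-153990781, plus strand): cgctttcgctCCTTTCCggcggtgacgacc
RPS27L (chr15:63157458-63157487, minus strand): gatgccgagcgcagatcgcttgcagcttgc
RPL7L1 (chr6:42879606-42879635, plus strand): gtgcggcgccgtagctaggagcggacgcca

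A TOP motif was counted where the annotated start is a C followed on the same strand by at least 4 bases that are each C or T. Of the subunit genes, 62 matched the table of starts, and 46 of them (74.2%) held the motif, against 945 of 14410 genes (6.56%) in that table. The share was 28 of 38 for the large subunit and 18 of 24 for the small subunit. Of 5 matched paralogs, 1 held it. RPS27L and RPL7L1 held no such run within 20 bases of the start either. A start that is annotated a few bases away from the cap gives no match, so the absence of the letters says nothing of the factor.

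The libraries differed widely before any test was made. They held 291260 to 4137111 counts, and the 5 most abundant genes made up 12.9 to 16.5% of each knockdown library and 8.50 to 54.7% of each control library. CTRL replicate 2, the smallest library, correlated better across genes with the shALDH1A1 libraries (Spearman rho 0.54 to 0.69 over the genes tested) than with the other CTRL libraries (0.11 to 0.15). The 12 markers of colon epithelium took 0.00267 to 0.0170% of the counts in shALDH1A1 cells and 0.0144 to 0.133% in CTRL, with CDX1 at 0 in all shALDH1A1 libraries and CDX2 at 0 in all CTRL libraries. The 8 genes of stomach chief and parietal cells took 0 to 0.00505% and 3.24 to 36.8%, with ATP4A and ATP4B at 0 in all shALDH1A1 libraries. The 8 leukocyte markers took 0.0834 to 0.116% and 0.0143 to 0.0559%, and MS4A1 and CD2 were at 0 in all shALDH1A1 libraries. The 9 markers of smooth muscle and fibroblasts took 0.000681 to 0.0321% and 0.0621 to 2.35%, and the 5 of red blood cells 0 to 0.0524% and 0 to 0.0993%. The part of these differences in the results below was not tested.

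The ribosomal protein genes of both subunits took far less of the shALDH1A1 libraries than of the CTRL libraries. The 77 genes held 0.166, 0.617, 0.410 and 0.362% of the counts in shALDH1A1 replicates 1 to 4, whereas they held 11.8, 2.84, 2.52 and 6.93% of CTRL replicates 1 to 4. Every shALDH1A1 library lay below every CTRL library, for each subunit alone as well. In bulk RNA, fewer cells and less of an mRNA per cell cannot be told apart. The share also moves with what else a library holds, and 25 other genes that every cell uses took 0.0153 to 0.0633% of the shALDH1A1 libraries and 0.203 to 1.41% of the CTRL libraries. Per count of those genes, the ribosomal protein genes had 10.9, 9.74, 8.75 and 9.38 counts in the 4 knockdown libraries, against 8.38, 14.0, 6.01 and 16.9 counts in the 4 controls. The groups overlapped in this ratio, and the shALDH1A1 values lay inside the CTRL range. Without RPS20, which was left out after its values had been seen, the ratio was 3.86, 8.61, 6.95 and 7.85 in the knockdown against 8.26, 13.5, 5.94 and 16.7 in the control. The groups still overlapped, but shALDH1A1 replicate 1 then lay below every CTRL library.

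**Figure D1:**
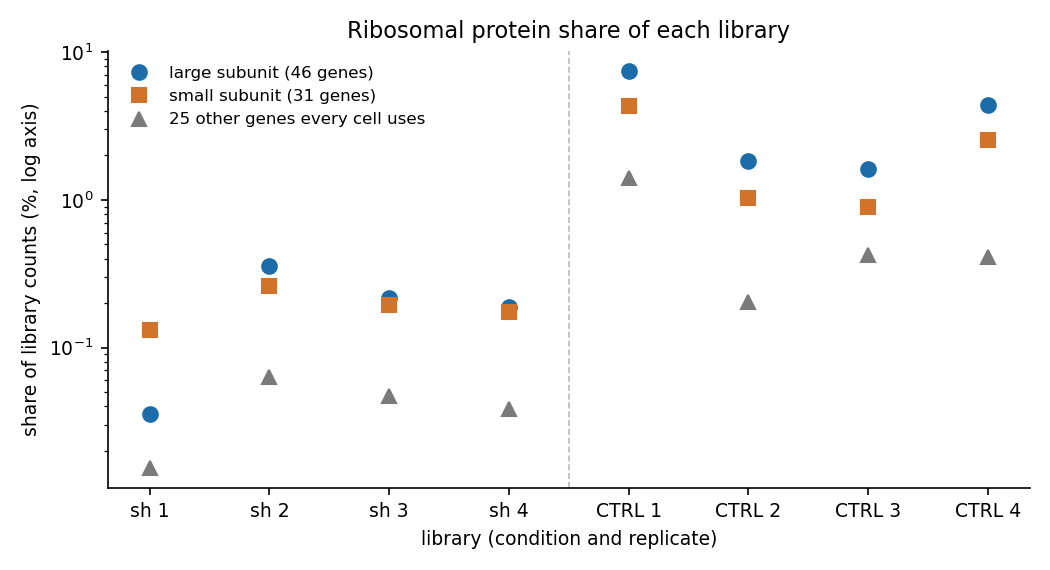
Share of each library's counts (%, log axis) taken by the 46 large subunit genes, the 31 small subunit genes and 25 other genes that every cell uses, in 4 shALDH1A1 and 4 CTRL libraries. All 3 groups of genes sit lower in every shALDH1A1 library than in any CTRL library, and only in shALDH1A1 replicate 1 does the small subunit lie above the large one.

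Gene by gene, 76 of the 77 log2 fold changes were negative, with a median of -2.51 against -1.44 over the 7971 genes tested with edgeR's quasi-likelihood test. All 77 subunit genes passed the filter on low counts. RPL38, RPL24 and RPS21 fell at an adjusted p under 0.05, and none rose. This is 3 of 77 genes, where 33.0% of all tested genes were called lower and 2.60% higher. At an unadjusted p under 0.05, 21 of the 77 were lower (background 41.6%). The standard errors of the single genes ran from 1.10 to 1.57 on the log2 scale, and the medians of the large and small subunit were -2.56 and -2.39.

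How many of the 77 were called depended on the scale and on single libraries. With DESeq2 75 were lower (background 49.2%), and with library totals in place of TMM factors 74 were lower (background 52.0%). With limma on log2(TPM + 1), 41 were lower (background 30.7%). Scaled to the genes every cell uses, 0 were lower (background 7.10%) and 0 higher (background 21.2%), with a median log2 fold change of -0.78 against 0.99 over all genes. On that scale 10 of the 77 fold changes were positive. Without CTRL replicate 2, 75 of the 77 were lower (background 60.4%), and without CTRL replicate 4, 71 (background 44.0%). Without shALDH1A1 replicate 1, 2 or 4 the count was 0 each time (background 22.5, 36.3 and 23.9%), and without CTRL replicate 1 it was 1 (background 24.6%). No setting called any of the 77 higher.

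**Figure D2:**
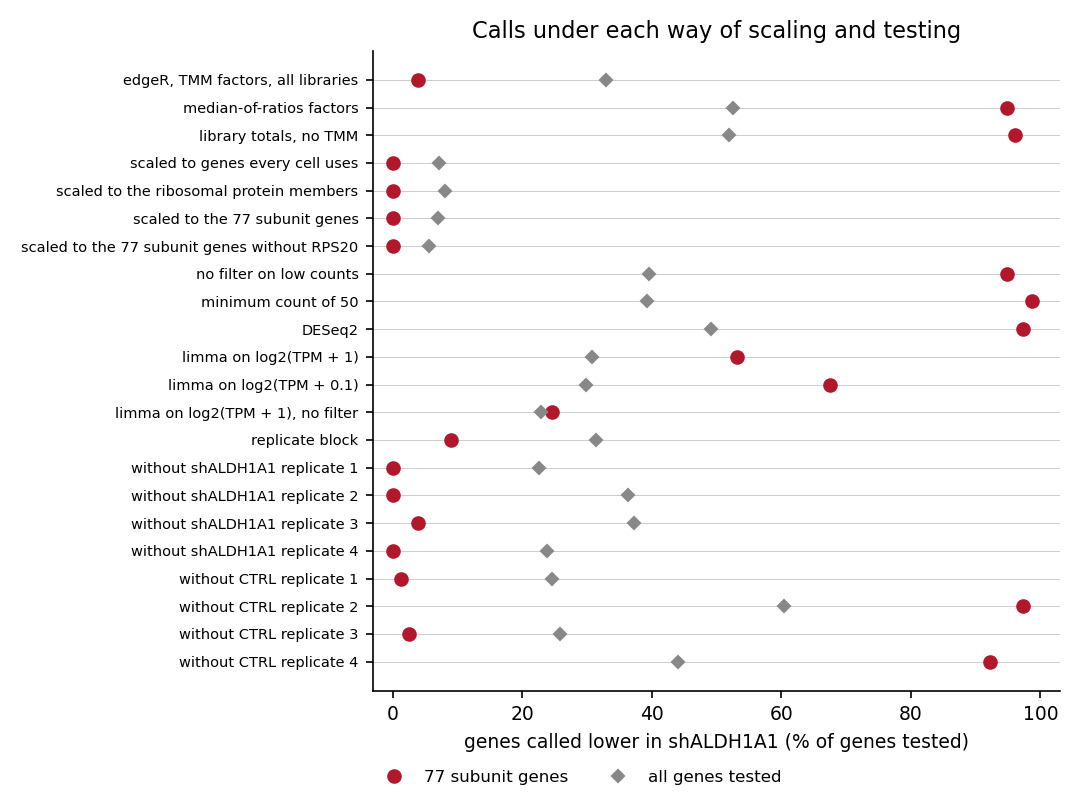
Percentage of genes called lower in shALDH1A1 cells at an adjusted p under 0.05 (x axis) under each way of scaling, filtering, testing or leaving out a library (y axis), for the 77 subunit genes (circles) and for all genes tested (diamonds). The 77 genes lie at 3 called of 77 with TMM factors, at 0 when scaled to genes every cell uses, and at 75 with DESeq2.

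The genes that fell were 2 of the large subunit and 1 of the small subunit. RPL38, a large subunit protein known in mice for the translation of homeobox mRNAs, was counted 3, 17, 10 and 13 times in the knockdown libraries (replicates 1 to 4) against 1969, 45, 263 and 547 times in the controls. On the log2 scale it fell by 3.70 (standard error 1.27, edgeR adjusted p = 0.0251). In TPM, which corrects for length and library, its groups overlapped, since shALDH1A1 replicate 4 had 117 TPM and CTRL replicate 3 had 95.1 TPM. RPL24, which lies at the interface to the small subunit, had 5, 23, 44 and 5 counts against 2449, 96, 895 and 1178, and fell by 3.44 on the log2 scale (standard error 1.37, edgeR adjusted p = 0.0499). RPS21, a small subunit protein, had 3, 3, 13 and 10 counts against 853, 15, 309 and 299, and fell by 3.24 (standard error 1.13, edgeR adjusted p = 0.0275). Its CTRL replicate 2 lay just above the highest shALDH1A1 library in counts. On the scale of the genes every cell uses, none of the 3 passed. RPL38 also missed the threshold without any 1 of the shALDH1A1 libraries (edgeR adjusted p = 0.0558 to 0.0866). RPL24 missed it without shALDH1A1 replicate 1, 2 or 4 or CTRL replicate 1 or 3 (edgeR adjusted p = 0.0503 to 0.145). For RPS21 the call was lost without shALDH1A1 replicate 1, 2 or 4 or CTRL replicate 1 (edgeR adjusted p = 0.0562 to 0.105).

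The next genes of each subunit by p missed the threshold. RPL35A had 0, 27, 30 and 3 counts in shALDH1A1 cells and 2417, 65, 707 and 1164 in CTRL cells, and a fitted difference of -3.63 on the log2 scale (edgeR adjusted p = 0.0512). The log2 fold change of RPL36 was -2.93, that of RPS25 -3.53, that of RPS23 -3.26 and that of RPS4X, the X-linked copy of a core small subunit protein, -3.34. RPS25, which some viral mRNAs need to recruit the ribosome, had 1, 30, 41 and 12 counts against 2852, 78, 1003 and 1540. Counts of RPL35A and RPS25, not scaled to the library, did not overlap between the groups. Their TPM did not overlap either, with every shALDH1A1 library lower, as was the case for 26.5% of all genes that averaged 1 TPM or more.

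Levels per length, in TPM, were ranked within each condition. In CTRL cells RPS27, a zinc finger protein of the small subunit, led with a mean of 9453 ± 6173 TPM (SD, n = 4), before RPL41, the shortest ribosomal protein, with 5705 ± 2792 TPM. The spread of these means covers the distance between neighbours. In shALDH1A1 cells RPS20 led with 2201 TPM, followed by RPS27 with 1185 ± 808 TPM (SD, n = 4) and RPL41 with 751 ± 371 TPM. Over the 77 genes, the mean in CTRL cells was 1.19 to 15.9 times that in shALDH1A1 cells, with a median of 6.94. For 62 of the 77 every shALDH1A1 library lay below every CTRL library in TPM, 38 of the large and 24 of the small subunit, where 26.5% of all genes that averaged 1 TPM or more did. None lay above in every library (background 5.61%). Across the 77 genes the TPM values of 2 CTRL libraries correlated with Spearman rho of 0.92 to 0.97, those of 2 shALDH1A1 libraries with 0.65 to 0.80, and those of libraries of different groups with 0.70 to 0.93. These pairs share genes and gene lengths, and the shALDH1A1 libraries held a median of only 12 to 96 counts per subunit gene.

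**Figure D3:**
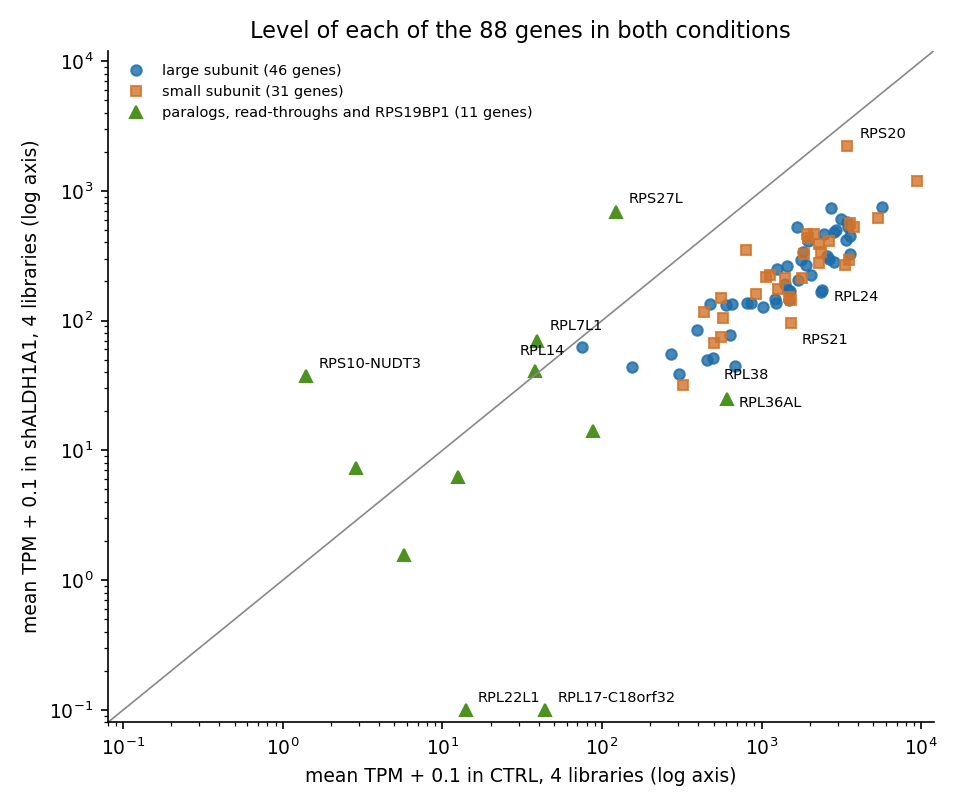
Mean level of each of the 88 genes in 4 CTRL libraries (x axis) and 4 shALDH1A1 libraries (y axis), as TPM + 0.1 on log axes, for large subunit genes (circles), small subunit genes (squares) and the other 11 genes (triangles). All 77 subunit genes lie below the line of equal level, RPS20 and RPL14 nearest to it, while RPS27L, RPL7L1, RPS10-NUDT3, RPL3L and RPL26L1 lie above it and RPL22L1 and RPL17-C18orf32 at 0 in shALDH1A1 cells.

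The stalk proteins, the 5S-binding proteins and RPSA did not pass the test. The stalk proteins RPLP0, RPLP1 and RPLP2 recruit elongation factors to the large subunit. RPLP0 had 19, 184, 158 and 26 counts in shALDH1A1 cells and 4901, 171, 2866 and 2338 in CTRL cells, so that CTRL replicate 2 lay below shALDH1A1 replicate 2 in counts. Those counts are not scaled to the library. In TPM CTRL replicate 2 had 1811 and shALDH1A1 replicate 2 had 623, and the groups did not overlap (background 26.5%). The log2 fold changes of RPLP0, RPLP1 and RPLP2 were -2.17, -2.95 and -3.07, with adjusted p of 0.206, 0.102 and 0.0704 in edgeR. RPL5 and RPL11 bind 5S RNA, and outside the ribosome they bind MDM2 and so stabilise p53. Their log2 fold changes were -2.84 and -2.67, with adjusted p of 0.109 and 0.138 in edgeR. For RPSA, a small subunit protein also described as a laminin receptor, the log2 fold change was -2.26 and the adjusted p 0.162 in edgeR.

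The genes with the most counts in CTRL cells did not pass the test either. RPL13A, a large subunit protein much used as a reference gene, had 46, 220, 189 and 62 counts in shALDH1A1 cells and 8165, 283, 3685 and 3708 in CTRL cells, with a log2 fold change of -2.49. RPL3, which helps shape the peptidyl transferase centre, stood at -3.61 on this scale and RPL10, which completes the large subunit, at -2.47. Of the small subunit, RPS6, the substrate of the S6 kinases, had -3.12 and RPS2 -2.03. Their adjusted p ran from 0.0698 for RPL3 to 0.229 for RPS2 in edgeR.

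The balance of the subunits differed between the conditions when RPS20 was counted, and the groups overlapped without it. There were 0.269, 1.36, 1.12 and 1.08 large subunit counts for each small subunit count in the 4 knockdown libraries, against 1.72, 1.78, 1.81 and 1.72 in the 4 controls. The means were 0.957 ± 0.475 and 1.76 ± 0.0417 (SD, n = 4), and the groups did not overlap. On the log2 scale the difference was -1.11, or -0.58 without shALDH1A1 replicate 1. Without RPS20 the ratio was 1.48, 1.87, 1.98 and 1.64 in shALDH1A1 cells and 1.79, 1.95, 1.87 and 1.78 in CTRL cells, the groups overlapped, and the log2 difference was -0.094. In TPM the log2 difference was -0.51 with RPS20 and -0.075 without it. RPS20 was left out after its values had been seen. Being a ratio within a library, this comparison does not depend on the library scale.

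**Figure D4:**
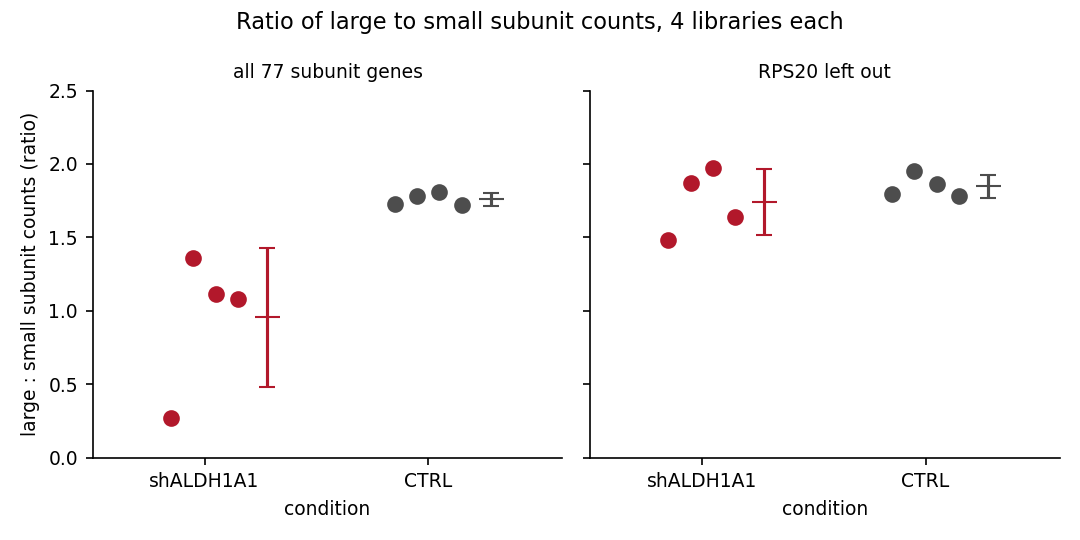
Counts of large subunit genes per count of small subunit genes in each library (points), with the mean and SD of the 4 libraries beside them, for all 77 genes (left) and without RPS20 (right). The shALDH1A1 libraries lie at 0.269 to 1.36 and the CTRL libraries at 1.72 to 1.81 on the left, and at 1.48 to 1.98 and 1.78 to 1.95 on the right.

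RPS20, a small subunit protein that also binds MDM2, was the subunit gene with the most counts in shALDH1A1 cells. Its counts were 2047, 995, 1417 and 317 in the knockdown libraries (replicates 1 to 4) against 3877, 261, 1181 and 1405 in the controls. Together with the next 4 genes of each library it took 23.7 to 73.0% of the counts of the 77 genes in the knockdown, where the top 5 took 13.7 to 16.1% in the control. Its own counts were 64.5, 11.6, 20.6 and 16.3% of all counts of the 77 genes in shALDH1A1 cells, against 1.41, 3.15, 1.13 and 1.22% in CTRL cells. In edgeR the log2 fold change was 1.43 with a standard error of 1.52 (adjusted p = 0.424), and negative with library totals (-0.28) and with limma on log2(TPM + 1) (-0.45). The groups overlapped in counts and in TPM.

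The counts of RPS20 came from different transcripts in the 2 conditions. The transcript NM_001146227.2 held 100, 97.5, 99.7 and 99.6% of the RPS20 counts of the 4 knockdown libraries, against 1.46, 79.5, 3.25 and 1.22% in the 4 controls. Its counts were 2047, 970, 1412 and 316 in shALDH1A1 cells against 56.6, 207, 38.5 and 17.2 in CTRL cells. The transcript NM_001023.4 had 0, 24.7, 4.65 and 1.36 counts in shALDH1A1 cells and 3821, 53.6, 1143 and 1387 in CTRL cells. Both groups were apart in these shares, and CTRL replicate 2 was the CTRL library nearest to the shALDH1A1 libraries.

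RPS29, a zinc-binding protein of the small subunit head, showed the same kind of difference. Its long transcript NM_001030001.4 had 61.9, 56.0, 47.2 and 44.1 counts in shALDH1A1 cells and 50.03, 20.8, 35.0 and 27.0 in CTRL cells. The short transcript NM_001032.5 had 2, 6, 11 and 5 counts in shALDH1A1 cells and 965, 32.9, 202 and 362 in CTRL cells. The long transcript thus made up 81.1 to 96.9% of the RPS29 counts in the knockdown and 4.89 to 37.9% in the control. These counts are not corrected for length. By TPM the short transcript was the main one in every library, with 68.6, 88.7, 94.5 and 90.7% of RPS29 in knockdown replicates 1 to 4. Its TPM share in the control libraries was 98.2 to 99.9%. The long transcript held 5.50 to 31.4% of the knockdown TPM against 0.0542 to 0.856% of the control TPM, still without overlap. Over the 3 transcripts of RPS29, the third with 0 to 8.19 counts, the log2 fold change was -0.88 (edgeR adjusted p = 0.500), where the family's median was -2.51. This value rests on counts, most of them from the long transcript in the knockdown. In TPM the gene had means of 293 in shALDH1A1 cells and 3540 in CTRL cells, a ratio of 0.083, without overlap (background 26.5%). For the median subunit gene the CTRL mean was 6.94 times the shALDH1A1 mean. Of the 8 members with at least 20 counts in every library and more than 1 transcript, RPS20, RPS29 and RPL10 had transcripts whose shares did not overlap, 4 of 21 transcripts lower (background 2.21%) and 2 higher (background 5.24%). In RPL10 it was a minor transcript, NM_001303624.2, at 0 in shALDH1A1 cells and at 0.23 to 13.7% of the gene in CTRL cells.

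**Figure D5:**
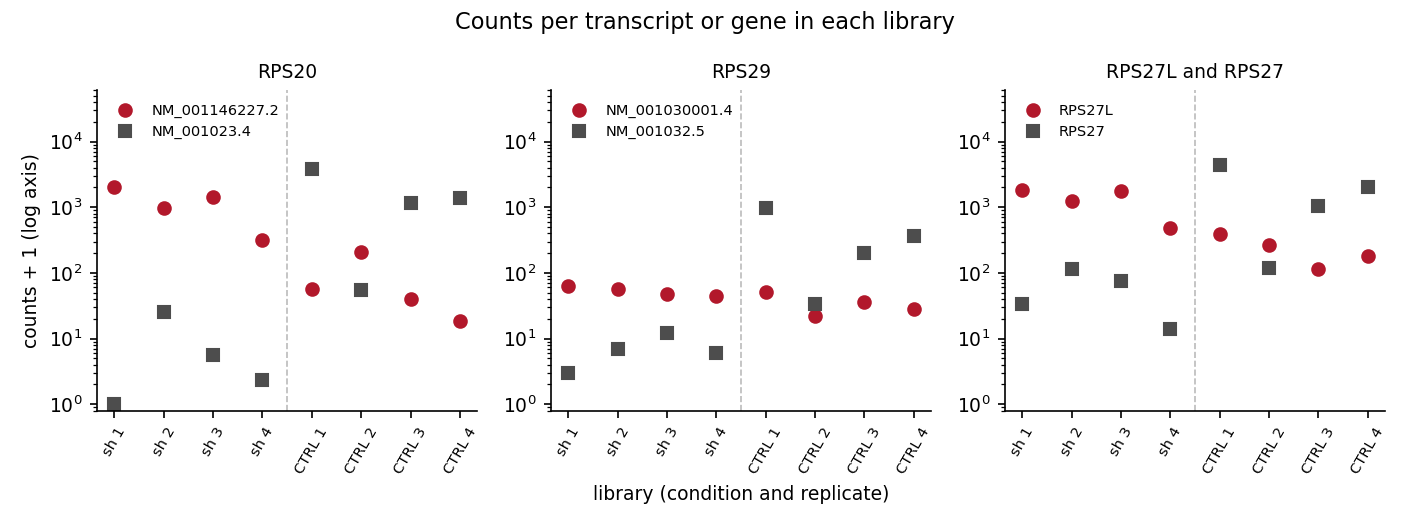
Counts + 1 (log axis) in each of the 8 libraries for 2 transcripts of RPS20, 2 transcripts of RPS29, and the genes RPS27L and RPS27. In all 4 shALDH1A1 libraries the circles lie above the squares, in CTRL replicates 1, 3 and 4 the squares lie above the circles, and CTRL replicate 2 follows the shALDH1A1 libraries for RPS20 and RPS27L but not for RPS29.

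Relative to the other members, few genes stood apart. Per 100 counts of the 76 subunit genes without RPS20, RPL14, a large subunit protein with transcripts among the longest of the family, had 8.45, 2.07, 2.73 and 4.83 counts in shALDH1A1 cells and 0.514, 0.871, 0.647 and 0.658 in CTRL cells. RPS15A, RPS29 and RPS20 were likewise higher in every shALDH1A1 library than in any CTRL library, so that 4 of 77 were apart in this direction, where 30.8% of all genes tested were. These counts are not corrected for length. By mean TPM among the 77, RPS29 went down, from rank 8 in CTRL cells to rank 30 in shALDH1A1 cells, whereas RPL14, RPS15A and RPS20 went up in rank. In the other direction 9 of 77 were apart, RPL3, RPL19, RPL24, RPL34, RPL35A, RPLP2, RPS4X, RPS6 and RPS25, where 9.06% of all genes tested were. RPL3 had 1.06, 1.37, 1.61 and 1.29 such counts in shALDH1A1 cells and 2.94, 3.79, 3.94 and 2.90 in CTRL cells. RPL38 and RPS21, which fell in the test, overlapped on this scale. The log2 fold change of RPL14 was -0.39 (edgeR adjusted p = 0.794) with TMM factors and 1.80 on the scale of the genes every cell uses.

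The 4 paralogs that passed the filter had log2 fold changes from -4.22 to 2.94. RPS27L, a paralog of RPS27 and a p53 target, was counted 1831, 1259, 1735 and 476 times in the knockdown libraries (replicates 1 to 4) against 388, 261, 114 and 182 times in the controls. It made up 0.0888 to 0.103% of every shALDH1A1 library, 0.0895% of CTRL replicate 2 and 0.00275 to 0.0167% of the other CTRL libraries. For each count of RPS27 there were 55.5, 11.1, 23.4 and 36.6 counts of RPS27L in shALDH1A1 cells and 0.0874, 2.21, 0.1101 and 0.0903 in CTRL cells, and the groups did not overlap. Per length, in TPM, this ratio ran from 0.283 to 1.55 in the knockdown and from 0.00185 to 0.0570 in the control. The log2 fold change of RPS27L was 2.94 with a standard error of 1.67 (edgeR adjusted p = 0.148). It passed with DESeq2 (adjusted p = 0.00343) and, without CTRL replicate 2, with edgeR (adjusted p = 9.24e-05). Although the table has 1 transcript for RPS27L, none of its 8 counts was whole, so some of its reads were shared with other sequences. Of the 39 members with 1 transcript, 8 had a count that was not whole and 3 had no whole count, RPS27L, RPL36A and RPS10-NUDT3.

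RPL7L1, a paralog of RPL7, had 107, 121, 66.2 and 43.6 counts in shALDH1A1 cells and 240, 36.9, 308 and 127 in CTRL cells, with a log2 fold change of 0.82 (edgeR adjusted p = 0.513) that was -0.59 with library totals. RPL36AL, a paralog of RPL36A, fell, with 0, 13, 3 and 0 counts against 993, 25, 412 and 352, and its log2 fold change was -4.22 with a standard error of 1.35 (edgeR adjusted p = 0.0174). This call was lost on the scale of the genes every cell uses (adjusted p = 0.0678) and without shALDH1A1 replicate 1, 3 or 4 (adjusted p = 0.0643, 0.0501 and 0.0576 with edgeR). RPL22L1, a paralog of RPL22, had no count in any shALDH1A1 library, against 125, 1, 17 and 26 counts in the 4 controls. Against a floor of 3 counts over the shALDH1A1 libraries it was at least 12.9-fold lower on the TMM scale. The limit was 5.10-fold without CTRL replicate 1, 22.6-fold without CTRL replicate 3 and 2.12-fold on the scale of the genes every cell uses, and RPL22L1 did not pass the filter on low counts. For RPL26L1, a paralog of RPL26, the log2 fold change was -0.13 (edgeR adjusted p = 0.893) and 2.64 on the scale of the genes every cell uses. RPL3L, the muscle form of RPL3, had 0 to 5 counts in any library, and RPL39L, the testis form of RPL39, had 0 or 1 count in the knockdown and 0 to 14 in the control.

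Of the read-through genes, which join a ribosomal protein gene to its neighbour and share exons with it, RPL17-C18orf32 was called lower (adjusted p = 0.000725 with edgeR). It had no count in any shALDH1A1 library, against 161, 13, 120 and 96 counts in the 4 controls, at least 29.7-fold lower against the same floor, or 4.88-fold on the scale of the genes every cell uses. RPS10-NUDT3 had 0, 3.13, 0 and 40.2 counts against 4.92, 0, 0 and 16.0, and RPL36A-HNRNPH2 a log2 fold change of -1.59. Since reads in the shared exons can be assigned to either gene, these values are uncertain. RPS19BP1 had 0, 4, 9 and 0 counts against 172, 6, 110 and 50.

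Members also differ in whether their transcripts hold sequence like 7SL RNA, the RNA of the signal recognition particle from which Alu repeats derive. Of the 77 genes, 26 (33.8%) had over 50 such bases in at least 1 protein-coding GENCODE transcript, against 43.8% of the tested genes with a match. RPS27L had the most, 710 bases in a transcript of 6110, followed by RPS29 with 679 of 7062, RPL37 with 487 of 7573, RPL14 with 461 and RPL7L1 with 384. The median log2 fold change was -2.28 for the 26 genes and -2.67 for the other 51. Over all genes tested it was 0.69 for the 3446 with such sequence and -2.56 for the 4422 without. The GENCODE transcripts need not be those the authors counted, and the part of this sequence in the results was not tested.

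FAU and RACK1, ribosomal proteins under other symbols, did not pass the test either. The log2 fold change was -2.92 for FAU, which encodes RPS30 fused to a ubiquitin-like protein, and -2.55 for RACK1, a scaffold bound to the small subunit. Their adjusted p were 0.0689 and 0.142 in edgeR. FAU had 0, 16, 23 and 3 counts in shALDH1A1 cells and 1115, 32, 496 and 369 in CTRL cells.

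Other genes of the translation machinery had list medians from -2.77 to -2.36 on the log2 scale, where that of the 77 was -2.51 and that of all genes tested -1.44. Their calls are to be read against the 33.0% of all genes tested that were lower and the 2.60% that were higher. Of 28 tested initiation factors, 13 fell and 0 rose, with a median log2 fold change of -2.77. EIF3C, a core subunit of eIF3, fell by 4.87 and EIF4G2, a scaffold for cap-independent initiation, by 4.08. Of 10 elongation and release factors, with a median of -2.43, 2 fell and 0 rose. ETF1, which recognises stop codons, was at -3.94 and its partner GSPT1 at -3.54. Of 17 tested ribosome assembly factors, 9 fell and 0 rose, with a median of -2.74, among them NOLC1, a nucleolar chaperone, with -5.23 and GNL3 with -3.59. Of 8 tested genes of RNA polymerase I and its factors, 5 fell, with TAF1D at -4.03 and RRN3, which brings the polymerase to the ribosomal DNA promoter, at -4.04. The 1 that rose, POLR1C, is also a subunit of RNA polymerase III, had a log2 fold change of 2.23, missed the threshold in 13 of the 22 settings that tested it and was chosen after its values were seen. Of 8 tested genes of the mTOR control of ribosomal protein mRNA, 4 fell, among them the mTOR inhibitors DEPTOR with -5.96 and TSC2 with -5.46. All 8 log2 fold changes were negative. MTOR itself, named after its values were seen, was at 0 in all shALDH1A1 libraries. All 14 genes of this list together took only 0.00143 to 0.0147% of the shALDH1A1 counts, against 0.0228 to 0.0857% in CTRL cells. No limit on the difference was computed for MTOR. DEPTOR had 0, 0, 1 and 0 counts in shALDH1A1 cells and 135, 3, 151 and 74 in CTRL cells. On the scale of the genes every cell uses (7.10% of all genes lower, 21.2% higher), DEPTOR and TSC2 were the only genes of these 5 lists called lower, and 2 assembly factors (TSR1 and WDR12) and 3 polymerase I genes (POLR1A, POLR1B and POLR1C), named after their values were seen, were called higher. The calls of EIF3C, EIF4G2, ETF1, GSPT1, NOLC1, GNL3, TAF1D and RRN3 were lost on that scale, and those of EIF4G2, GNL3 and TAF1D also without shALDH1A1 replicate 1 or 4. DEPTOR and TSC2 passed at an adjusted p under 0.05 in all 22 settings that tested them. Neither reached the study's adjusted p under 0.001 in edgeR with TMM factors (0.00111 and 0.00232).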

How the data were processed

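HT29 RNA-seq libraries (4 shALDH1A1, 4 CTRL) were analysed from 1 table of transcripts in which the authors deposited RSEM expected counts, not normalized, and TPM. The paper's methods name CASAVA, FASTQC, HISAT and hg19, whereas Bowtie2, BWA and GRCh38.p13 stand in the submitters' processing notes. Of the nonzero values, 64.7% were not whole at a tolerance of 0.001. Counts were summed per gene and rounded. The libraries held 291260 to 4137111 counts, and counting error alone is covered by the floor of 3 counts.

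Genes were filtered by filterByExpr (counts of 10 or more, total of 15), scaled by TMM and tested with the two-sided quasi-likelihood test of edgeR 4.0.16. Calls were made under 0.05 after Benjamini-Hochberg adjustment over all genes tested. Standard errors were derived from the fold change and its F statistic. No replicate block was used. Alternatives were DESeq2 1.42.0, limma 3.58.1 on log2(TPM + 1) or log2(TPM + 0.1), other scales and filters, the study's thresholds and each library left out, in R 4.3.3. The fits were also run on simulated data with a common dispersion for all genes and a small set of genes changed in either direction. The libraries here differ from that setting, so the simulation does not vouch for the calls.

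TOP motifs were read from RefSeq promoters (GRCh38.p14) and 7SL-like sequence by blastn against GENCODE transcripts (GRCh37). The members and gene lists were chosen with earlier results of these data known. Named were all called members, the 4 smallest p, the 3 highest CTRL and shALDH1A1 counts per subunit, members higher in or absent from shALDH1A1 cells, stalk and 5S proteins, RPSA, paralogs, FAU, RACK1 and 2 genes per other list. Some genes that this rule names are not reported here.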

Additional observations from a re-analysis of the deposited data

Results flagged for a closer look

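Over 98 groups of 4 libraries (shares, ratios and the TPM of the named genes), 17 held a library whose distance from the others exceeded the limit that chance passes in about 1 group in 20. For the ribosomal proteins, RPS20 made up 64.5% of the subunit gene counts in shALDH1A1 replicate 1 against 11.6 to 20.6% in the other shALDH1A1 libraries, and 3.15% in CTRL replicate 2 against 1.13 to 1.41% in the other CTRL libraries. shALDH1A1 replicate 1 was also far below the other shALDH1A1 libraries for RPS25 (7.87 TPM against 328 to 379), RPS23 (4.46 TPM against 38.4 to 44.9) and RPS4X (21.3 TPM against 176 to 197). CTRL replicate 2 was far above the other CTRL libraries for the share of RPS27L (0.0895% against 0.00275 to 0.0167%), the level of RPS27L (430 TPM against 6.32 to 32.7), RPL7L1 (83.6 TPM against 19.1 to 29.0) and RPL3L (10.0 TPM, from 2 counts). RPS10-NUDT3 reached 145 TPM in shALDH1A1 replicate 4 against 0 to 4.11 in the other shALDH1A1 libraries, and EIF4G2 193 TPM in CTRL replicate 1 against 111 to 123 in the others. Detected in a single shALDH1A1 library were RPL39L (5.82 TPM), NOLC1 (0.87 TPM) and GNL3 (7.06 TPM) in replicate 2, and TAF1D (3.49 TPM), DEPTOR (1.17 TPM) and TSC2 (0.99 TPM) in replicate 3. These genes are among the 17, but with the other shALDH1A1 libraries at 0 any count exceeds the limit. The rate of 1 in 20 does not hold for them.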

How the results depend on the processing

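The number of the 77 subunit genes called lower was 3 (2 large, 1 small). It was 73 with median-of-ratios factors (44 large, 29 small), 74 with library totals (45, 29), 73 with no filter on low counts (44, 29), 76 with a minimum count of 50 (46, 30), 75 with DESeq2 (45, 30), 41 with limma on log2(TPM + 1) (25, 16), 52 with limma on log2(TPM + 0.1) (31, 21) and 19 with limma on log2(TPM + 1) with no filter (12, 7). It was 7 (5, 2) in the fit with the replicate block. Samples with the same number correlated by -0.35 to 0.15 in their deviations from the group means, and samples with different numbers by -0.32 to 0.39. This check showed no pairing by number, but with so few pairs it cannot exclude one. It was 0 (0, 0) when scaled to genes every cell uses, to all 88 ribosomal protein members, to the 77 subunit genes or to these without RPS20 (both added after seeing the data), and at an absolute log2 fold change over 1 with an adjusted p under 0.001. Leaving out 1 library gave 0 to 75 genes (0 to 45 large, 0 to 30 small). Over all genes tested, the share called lower was 52.6% with median-of-ratios factors, 52.0% with library totals, 39.6% with no filter, 39.3% at a minimum count of 50, 49.2% with DESeq2, 30.7, 29.8 and 23.0% with the 3 limma fits, 31.5% with the block, 7.10, 8.08, 6.96 and 5.63% on the 4 scales that gave 0, and 22.5 to 60.4% with 1 library left out. The number called higher was 0 in every setting. The cause of these differences was not tested.

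The family's median log2 fold change of -2.51 ran from -4.58 to -0.49 in the other settings and was -0.097 when scaled to the 77 subunit genes without RPS20, and -3.78 to -1.95 with 1 library left out. The log2 difference of large to small subunit counts of -1.11 was -1.35 to -0.58 with 1 library left out, and -0.34 as a mean over genes of log2(CPM + 1). With coding transcripts only, nothing changed, as all transcripts are coding.

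Signs of single genes turned as follows. RPS20 had -0.28 with library totals, -0.16 at a minimum count of 50 and -0.45 with each limma fit, and RPL7L1 had -0.59 and -0.48 under the first 2 of these. Scaled to genes every cell uses, to all members, to the 77 subunit genes and to these without RPS20, RPL14 had 1.80, 1.67, 2.06 and 2.74, and RPL26L1 2.64, 2.298, 2.77 and 3.67. On the last of these scales RPL13A had 0.092, RPL10 0.31, RPS21 0.063, RPS2 0.20 and RPSA 0.28. With 1 library left out, RPL14 ran from -1.28 to 0.11 and was positive without shALDH1A1 replicate 1 or 4, and RPL26L1 ran from -0.64 to 0.39 and was positive without shALDH1A1 replicate 2 or 4.

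Depth limits the low genes: 28 and 19 of the 77 subunit genes had under 10 counts in shALDH1A1 replicates 1 and 4, and 2 had none in replicate 1.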
